A study of Homo sapiens with 16 samples.

Results

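SOX9, SPP1, ONECUT1, ONECUT2, PROX1, HES1, CFTR and CA2 are 8 genes used to mark pancreatic duct cells and the progenitors from which duct, acinar and endocrine cells arise. They were chosen by symbol from a table of reads for 62754 genes, and each symbol matched 1 row. All 8 had enough reads to enter the 24515 genes tested.

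The libraries came from planar cultures of islets differentiated from HUES08, a human embryonic stem cell line labelled wild type. Compounds predicted from a library of drug response signatures were given from stage 5 of the differentiation until 7 days into stage 6, and RNA of the whole culture was then sequenced. There were 16 libraries in 8 groups of 2. The controls received DMSO. The other groups received colchicine, which binds tubulin, at 10 nM, the anti-inflammatory drug epirizole at 2.5 uM, the PI3 kinase inhibitor Ly-294002 at 120 nM, the antibiotic moxifloxacin at 1.1 uM, the kinase inhibitor rottlerin at 1.23 uM, the phosphodiesterase inhibitor vardenafil at 125 nM, or the cannabinoid receptor antagonist rimonabant at 125 nM. Every library had the batch label 1, and all groups share the 1 cell line. The labels do not state if replicates were separate differentiations. The p-values then measure only library-to-library spread, part of which may be technical.

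In the developing pancreas SOX9 keeps multipotent progenitors in their undifferentiated, dividing state, and it is later retained in the duct epithelium. ONECUT1 (also called HNF6) acts with it upstream of the genes that start endocrine differentiation, and PROX1 is a homeobox factor of early pancreatic and hepatic endoderm. Notch signals passed from neighbouring cells are read out by HES1, a repressor that holds back endocrine differentiation. Mature duct cells secrete bicarbonate, which needs the chloride channel CFTR and the carbonic anhydrase CA2, and they also make the secreted phosphoprotein osteopontin, the product of SPP1. Most of these genes are not particular to the pancreas, and fetal liver and intestine use several of them.

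Library totals ran from 23294377 to 30701868 reads, and the 8 genes had between 335 reads (SPP1 in Moxifloxacin 1) and 34724 reads (ONECUT2 in Rottlerin 2) in a library. Levels are CPM, the reads of a gene per 1000000 reads of the library, scaled by the trimmed mean of M values (TMM). Plain CPM are without this scaling, as are the marker gene medians and the summed levels of lists given below. In these bulk cultures, fewer cells of a type and less RNA per cell cannot be told apart. Rimonabant 2 stood apart from the other libraries in how its levels ran with the GC content of the transcript: the difference in log2 units between the 10% of genes with the highest and the 10% with the lowest GC was 0.871, against −0.339 and −0.459 in the DMSO libraries. The DMSO values were the lowest of all libraries, followed by −0.249 in Epirizole 2, and every comparison with a compound uses them.

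The labels' cell type was checked against other marker genes. The islet hormone genes INS, GCG and SST had medians of 2.13, 4.18 and 6.59 CPM. PDX1, the factor that defines the pancreatic domain, had a median of 40.8 CPM, whereas NKX6-1, which marks progenitors able to make beta cells, had 2.82 CPM, and PTF1A, the acinar and early progenitor factor, had at most 1 read in a library. Of the broader epithelial genes of ducts, KRT19 had a median of 448.8 CPM and CDH1 of 637 CPM. Genes of other tissues were also read: the fetal liver protein AFP had a median of 4716 CPM, the intestinal adhesion molecule CDH17 568.8 CPM, the intestinal factor CDX2 99.4 CPM and the mesenchymal collagen COL3A1 849.5 CPM. The summed level of 7 endothelial and lymphatic genes was 18.89 to 31.41 CPM, and PDPN, which epithelia also make, had a median of 20.68 CPM against 0.034 CPM for LYVE1. That of 6 macrophage genes was 6.772 to 11.74 CPM, with medians of 4.138 CPM for CSF1R, 3.34 CPM for LYZ and 0.0659 CPM for the leukocyte marker PTPRC. Which of these cell types supplied the reads of the 8 genes was not tested.

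Per kilobase of exon, ONECUT2 had the highest median over the 16 libraries (47.0 CPM per kilobase), followed by HES1 (38.5), CFTR (27.0), ONECUT1 (26.4), CA2 (23.9), SOX9 (14.4), PROX1 (12.8) and SPP1 (6.73). The order among the 8 did not separate duct from progenitor genes. ONECUT2 came first and the duct marker SPP1 last, but the duct secretion genes CFTR and CA2 lay above SOX9 and PROX1. Genes also differed in how steady they were. From the lowest to the highest library HES1 ranged 1.32-fold, CFTR 1.53-fold and CA2 1.70-fold, whereas SOX9 ranged 2.68-fold, ONECUT1 2.86-fold, PROX1 2.90-fold, ONECUT2 2.90-fold and SPP1 3.06-fold.

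**Figure D1:**
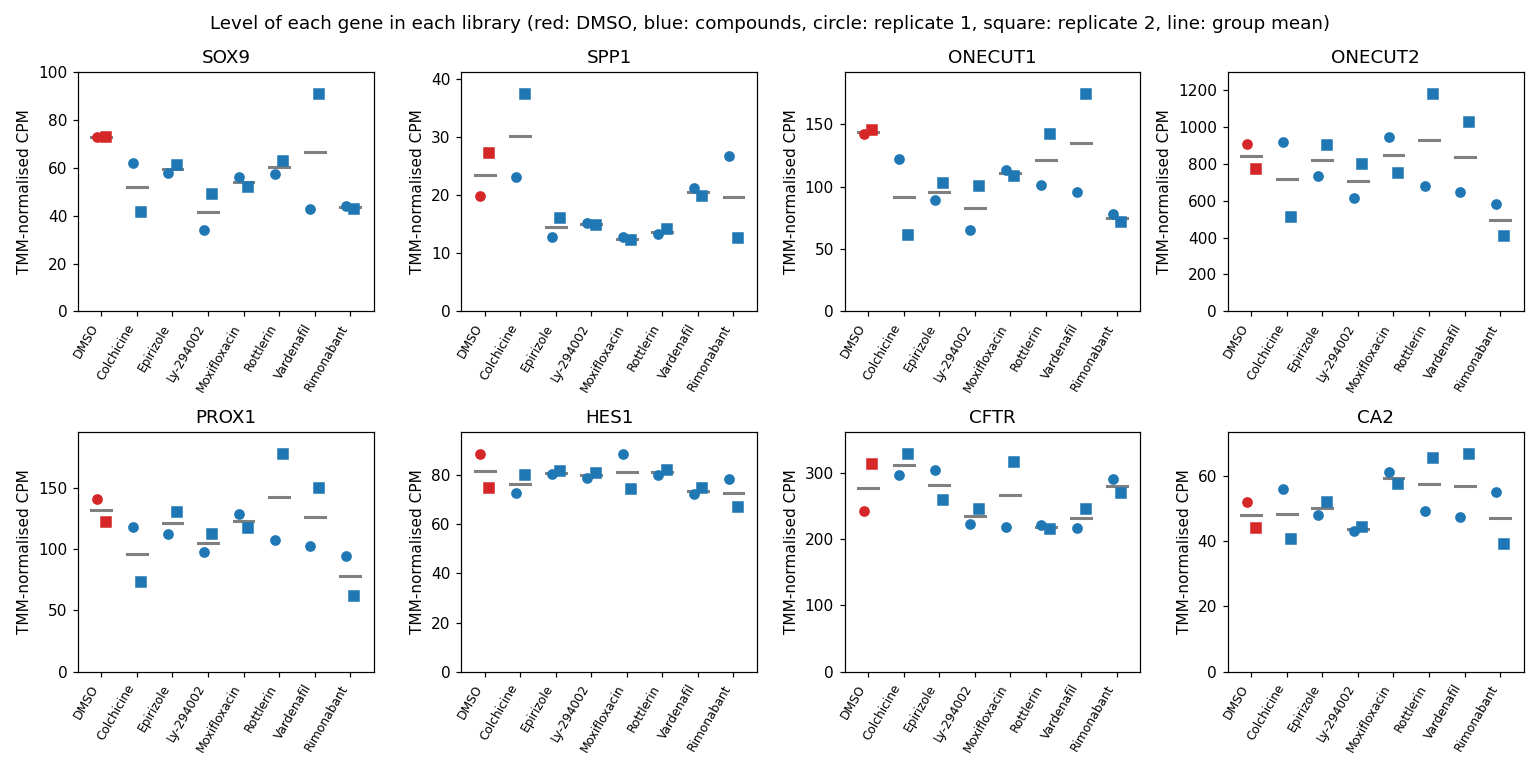
TMM-normalised CPM (vertical axis, starting at 0) of each of the 8 genes in the 16 libraries, by group (horizontal axis), with replicate 1 as a circle, replicate 2 as a square and the mean of the 2 as a line, DMSO in red and compounds in blue. HES1 stays between 67.2 and 88.8 CPM, while SOX9 spreads from 42.6 to 91.1 CPM within the vardenafil pair alone.

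SOX9 lies on chromosome 17 (GRCh38, 72121020 to 72126420, plus strand). With DMSO it stood at 72.8 and 73.0 CPM. It stood at 62.3 and 41.4 CPM with colchicine, 58.1 and 61.3 with epirizole, 34.0 and 49.2 with Ly-294002, 56.0 and 52.2 with moxifloxacin, 57.4 and 63.0 with rottlerin, 42.6 and 91.1 with vardenafil, and 44.2 and 42.7 with rimonabant. Both libraries lay below both DMSO libraries for 6 of the 7 compounds, where 19% to 26.4% of all tested genes did so for a given compound, and vardenafil had 1 library below and 1 above. The 2 DMSO libraries happened to be almost equal for SOX9, and all 7 comparisons use them. The lowest values relative to DMSO were with Ly-294002 (log2 change −0.81, SE 0.31, edgeR adjusted p = 0.969) and rimonabant (−0.75, SE 0.309, edgeR adjusted p = 0.166). Neither passed the threshold of 0.05. In the order of group means (DMSO, vardenafil, rottlerin, epirizole, moxifloxacin, colchicine, rimonabant, Ly-294002) all neighbours overlapped except epirizole and moxifloxacin. The antisense gene SOX9-AS1, which overlaps it, had a median of 1.05 plain CPM.

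ONECUT1 lies on chromosome 15 (52756989 to 52791078, minus strand). Its levels were 142 and 145.5 CPM with DMSO, 122.6 and 61.2 with colchicine, 89.6 and 102.6 with epirizole, 65.1 and 100.8 with Ly-294002, 113.6 and 108.7 with moxifloxacin, 101 and 142.6 with rottlerin, 95.5 and 174.7 with vardenafil, and 78.4 and 71.7 with rimonabant. It lay below DMSO in both libraries for 5 compounds and overlapped DMSO with rottlerin and vardenafil. The log2 change was −0.94 with rimonabant (SE 0.366, edgeR adjusted p = 0.148), which was the lowest adjusted p of the 8 genes in the 10 edgeR tests on all libraries. Vardenafil 2, where SOX9 also had its highest value, held the highest ONECUT1 level of the 16 libraries. Among neighbours in the order of group means, moxifloxacin and epirizole alone did not overlap.

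ONECUT2, a paralogue of ONECUT1, lies on chromosome 18 (57435685 to 57491297, plus strand), and per kilobase its median was above that of ONECUT1 (47.0 against 26.4 CPM). Its values were 909.9 and 774.5 CPM with DMSO, 922.1 and 514.8 with colchicine, 735.7 and 905.1 with epirizole, 615.9 and 800.6 with Ly-294002, 947.5 and 750.6 with moxifloxacin, 679.6 and 1182 with rottlerin, 648.3 and 1029 with vardenafil, and 580.6 and 407.4 with rimonabant. The libraries of 6 compounds overlapped DMSO, and those of rimonabant lay below (log2 change −0.77, SE 0.366, edgeR adjusted p = 0.233). Rimonabant was also the only group in its order of means that did not overlap its neighbour, Ly-294002. The remaining paralogue, ONECUT3, named here after its values were seen, ranged from 10.1 to 53.8 plain CPM.

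PROX1 lies on chromosome 1 (213983181 to 214041502, plus strand). It stood at 140.9 and 122.5 CPM with DMSO, 118.4 and 73 with colchicine, 112.4 and 130.4 with epirizole, 97.3 and 112.4 with Ly-294002, 128.5 and 116.9 with moxifloxacin, 107.8 and 177.7 with rottlerin, 102.9 and 149.5 with vardenafil, and 94.1 and 61.3 with rimonabant. Colchicine, Ly-294002 and rimonabant lay below both DMSO libraries, the last by −0.76 on the log2 scale (SE 0.311, edgeR adjusted p = 0.162). As for ONECUT2, the highest library was Rottlerin 2 and the lowest Rimonabant 2. Epirizole and Ly-294002 were the neighbours in its order of means that did not overlap. Its antisense neighbour PROX1-AS1 had a median of 2.86 plain CPM.

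HES1 lies on chromosome 3 (194136145 to 194138732, plus strand). The stretch just upstream of its start is shown because RBPJ, the DNA-binding partner of the Notch receptors, is known to act on this promoter. Capitals mark the letters TGGGAA, the core that RBPJ binds, searched on both strands with no overlap between the 2 matches. They begin 84 and 70 bases before the RefSeq start, both on the plus strand. Of 35116 promoter stretches of 250 bases in the RefSeq table, 20.8% held at least 1 such match and 2.9% held 2 or more. The sequence is from RefSeq (GRCh38.p14), 5′ to 3′, chr3:194135898-194136144, plus strand.
HES1: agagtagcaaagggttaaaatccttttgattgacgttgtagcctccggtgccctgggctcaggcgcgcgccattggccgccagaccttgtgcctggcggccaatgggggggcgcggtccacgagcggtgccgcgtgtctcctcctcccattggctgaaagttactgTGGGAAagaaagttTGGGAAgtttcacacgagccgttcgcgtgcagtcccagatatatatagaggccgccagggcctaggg
The same letters were found 0 times in the stretches listed for ONECUT1, ONECUT2, SPP1 and CFTR, which says only that they are not in those 250 bases.

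HES1 levels were 88.8 and 75.0 CPM with DMSO, and the other 14 libraries lay between 67.2 CPM (Rimonabant 2) and 88.6 CPM (Moxifloxacin 1). Every group in its order of means overlapped its neighbour. Its log2 changes ran from −0.17 (rimonabant, SE 0.108, edgeR adjusted p = 0.375) to −0.01 (moxifloxacin). HES1 was the steadiest of the 8, and its 95% intervals were the narrowest, with a median width of 0.462 log2 units against 1.64 for ONECUT1. For rimonabant the interval reached from −0.40 to 0.06. Vardenafil was the only compound with both libraries below both DMSO libraries, at 72.37 and 74.99 CPM against a lower DMSO value of 75.01 CPM.

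Genes around HES1 in the Notch pathway were read from lists of ligands, receptors and modulators, and targets. Per kilobase the receptors NOTCH3 and NOTCH2 had means of 34.86 and 23.19 plain CPM and the ligand JAG1 20.33. Of the 8 target genes other than HES1, NRARP was highest on that scale at 10.47, followed by HES4 at 6.038, and HES5 was at 0.0795. With rimonabant, which had 7.8% of all tested genes called, 3 of 13 receptors and modulators passed the threshold: NOTCH3 (log2 change 0.55, but −0.01 with the GC offset) and the glycosyltransferase RFNG (0.75, and 0.06 with the offset) were higher, and RBPJ was lower (−0.38, and −0.10 with the offset). Of 6 tested target genes 2 rose: HES4 by 1.39 and HES6 by 0.98 on the log2 scale, which became 0.41 and 0.28 with the GC offset. With that offset edgeR called 0 of all genes of known GC with rimonabant. Rimonabant 2, whose GC trend stood apart, is 1 of the 2 libraries behind these calls, and edgeR also called 0 of all genes without Rimonabant 2, without DMSO 1 or without DMSO 2. Every rimonabant call of a list gene, 20 in all the lists, is therefore lost in each of these 4 settings, while DESeq2 on all libraries kept all 20. No ligand, receptor, modulator or target was called with any other compound.

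CFTR lies on chromosome 7 (117465784 to 117715971, plus strand). It had 241.4 and 312.9 CPM with DMSO, 295.8 and 328.2 with colchicine, 221.7 and 215 with rottlerin, and between 216.7 and 316.5 in the remaining 10 libraries. Rottlerin was the only compound with both libraries below DMSO (log2 change −0.34, SE 0.161, edgeR adjusted p = 0.344), and neighbours in the order of means overlapped throughout. CTTNBP2 overlaps CFTR on the opposite strand and had 39.4 to 91.1 plain CPM. The strand setting of the counting is not given in the sources used here, so the share of its reads counted for CFTR is not known.

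CA2 is on chromosome 8 (85463852 to 85481493, plus strand). It had 52.1 and 44.2 CPM with DMSO, 61.1 and 57.4 with moxifloxacin, and between 39.2 (Rimonabant 2) and 66.8 (Vardenafil 2) over all libraries. Moxifloxacin was the only instance among the 56 pairs of gene and compound in which both libraries lay above both DMSO libraries (log2 change 0.30, SE 0.208, edgeR adjusted p = 0.595). That compound had 23.2% of all tested genes above DMSO by the same measure.

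Other genes of duct secretion were read from 2 lists. Of 13 tested genes of bicarbonate and chloride transport, 4 passed with rimonabant (7.8% of all tested genes). Among them the anion exchanger SLC4A2 (0.65) and the epithelial sodium channel subunit SCNN1A (0.45) rose, and the sodium-bicarbonate cotransporter SLC4A4 fell (−0.58). With colchicine SLC4A2 alone rose (0.54, edgeR adjusted p = 0.0401, with 0.196% of all tested genes called). Its edgeR adjusted p was 0.139 with the GC offset, 0.079 with the replicate block and 0.0959 to 0.486 without any 1 library of the pair or of DMSO. Of 9 tested carbonic anhydrases other than CA2, CA3 alone was called, with rimonabant (−1.08, edgeR adjusted p = 0.039). The rimonabant calls of both lists are among the 20 lost with the GC offset or without Rimonabant 2, DMSO 1 or DMSO 2. The water channel AQP5 had at most 4 reads in a library.

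SPP1 lies on chromosome 4 (87975650 to 87983426, plus strand) and had a pattern of its own. Its levels were 19.8 and 27.1 CPM with DMSO, 23.0 and 37.4 with colchicine, 12.9 and 16.1 with epirizole, 15.2 and 14.8 with Ly-294002, 12.8 and 12.2 with moxifloxacin, 13.3 and 14.1 with rottlerin, 21.2 and 19.9 with vardenafil, and 26.7 and 12.7 with rimonabant. Epirizole, Ly-294002, moxifloxacin and rottlerin had both libraries below DMSO, the remaining 3 compounds overlapped it, and colchicine held the highest library. The log2 change was −0.91 with moxifloxacin (SE 0.305, edgeR adjusted p = 0.321), −0.78 with rottlerin (SE 0.303, edgeR adjusted p = 0.259) and −0.70 with epirizole (SE 0.303, edgeR adjusted p = 0.901). Rottlerin and moxifloxacin were the neighbours in the order of means that did not overlap. Between the rimonabant libraries SPP1 differed by 1.07 log2 units. Without Rimonabant 1 the change was −0.89, which rests on Rimonabant 2 alone, the library whose GC trend stood apart. Without Rimonabant 2 it was 0.19, and with the GC offset on all libraries −0.08. Osteopontin binds integrins and CD44. Of 10 tested receptor genes ITGB5 alone passed, with rimonabant (0.37, edgeR adjusted p = 0.0315, where 7.8% of all tested genes were called), and it too is lost with the GC offset or without Rimonabant 2, DMSO 1 or DMSO 2. Per kilobase the subunits ITGB1 and ITGAV were the highest of the 10, at means of 93.56 and 47.95 plain CPM.

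Over the 56 pairs of gene and compound, edgeR called 0 at an adjusted p under 0.05, and 7 pairs had an unadjusted p under 0.05. These were SPP1 with epirizole (5.26% of all tested genes at that p), moxifloxacin (11.9%) and rottlerin (14.8%), SOX9 with Ly-294002 (4.69%), and SOX9, ONECUT1 and PROX1 with rimonabant (24.8%). None of the 8 had such a p with colchicine (17.5%) or vardenafil (5.22%). DESeq2 called 1 pair, SOX9 with rimonabant (log2 change −0.76, DESeq2 adjusted p = 0.0273). Of the genes to which it gave an adjusted p, DESeq2 called 18.5% with rimonabant, 5.35% with colchicine, 4.37% with rottlerin, 0.459% with moxifloxacin, 0.00816% with vardenafil and 0% with epirizole and Ly-294002. Of all 24515 genes, edgeR called 7.8% with rimonabant, 0.196% with colchicine, 0.00816% with rottlerin and 0% with each of epirizole, Ly-294002, moxifloxacin and vardenafil. The edgeR adjusted p-values of the 8 genes ran from 0.148 to 1.

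The direction was mostly downward: 44 of the 56 log2 changes were below 0. Of all tested genes, 48.8% to 50.4% had a log2 change above 0 for a given compound. Both libraries lay below both DMSO libraries in 21 pairs: 3 of 8 genes with colchicine (25.8% of all tested genes lay below in that way), 3 with epirizole (19%), 4 with Ly-294002 (19.5%), 3 with moxifloxacin (24.4%), 3 with rottlerin (24.4%), 1 with vardenafil (20%) and 4 with rimonabant (26.4%). Both lay above in the 1 pair of CA2 and moxifloxacin (23.2% of all tested genes), and in 0 pairs with colchicine (24.5%), epirizole (19%), Ly-294002 (19.5%), rottlerin (23.6%), vardenafil (19.4%) and rimonabant (26.8%). Because all 7 compounds were set against the same 2 DMSO libraries, these counts are not independent of each other. SOX9, ONECUT1, ONECUT2 and PROX1 also varied together over the libraries (r from 0.729 to 0.971, given below), so these genes are not separate observations. The median log2 change of the 8 genes was −0.50 with rimonabant and −0.29 with Ly-294002, and between −0.17 and −0.08 with the other 5, where the median of all tested genes lay between −0.011 and 0.004.

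**Figure D2:**
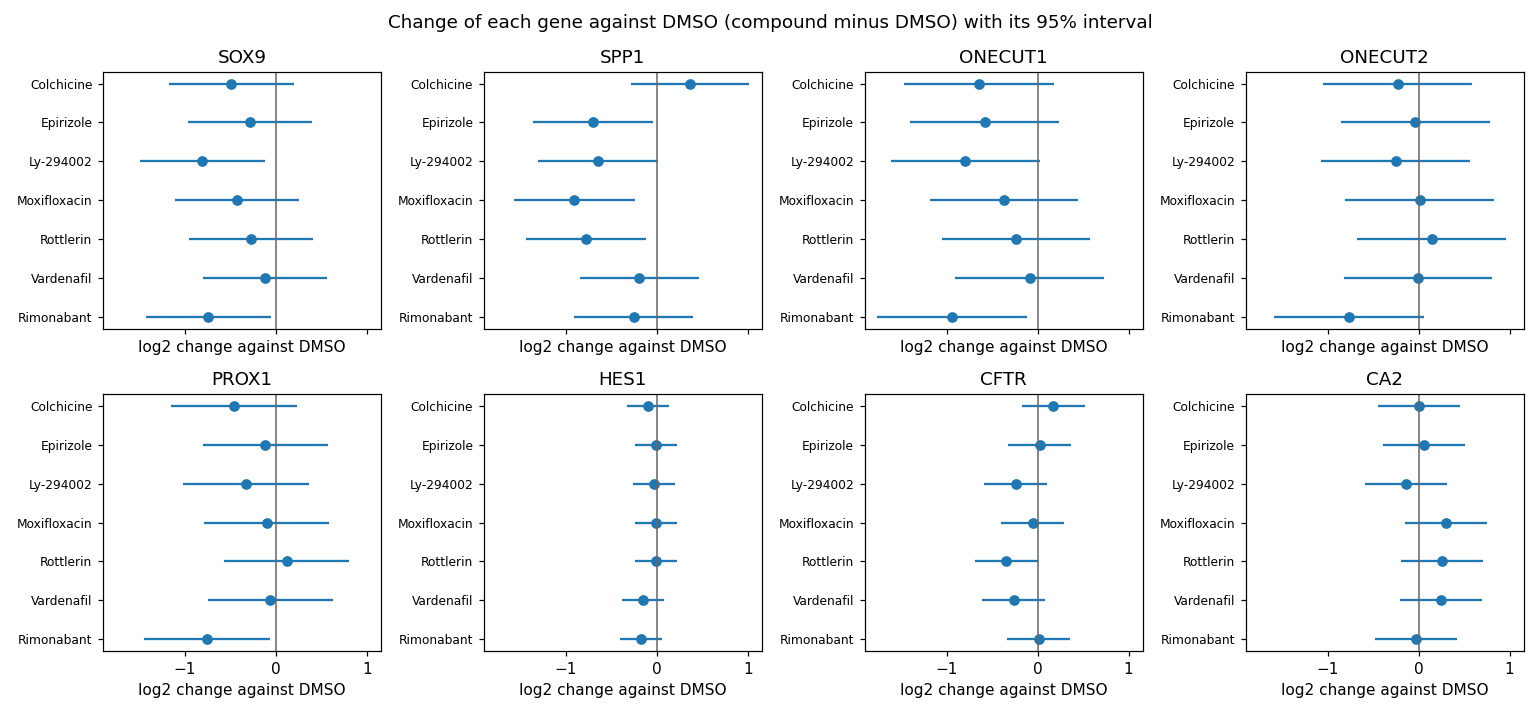
Log2 change of each of the 8 genes (horizontal axis, compound minus DMSO, with its 95% interval as a line) for each compound (vertical axis), from the edgeR fit of all 16 libraries. Points for HES1 stay between −0.17 and −0.01, and those for SOX9 and ONECUT1 all lie left of 0, with intervals that mostly cross it.

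Asked jointly whether a gene differed from DMSO with any of the 7 compounds, edgeR called 0 of the 8 genes (0.00408% of all tested genes). SPP1 had the smallest p, 0.0119 unadjusted and 0.258 adjusted, and was the only one of the 8 under 0.05 unadjusted (12.9% of all tested genes). DESeq2's likelihood ratio test called SPP1 alone of the 8 (adjusted p = 8.48e-04), where it called 1216 of 16435 genes with an adjusted p (7.4%). For the mean of the 7 compounds against DMSO, edgeR called 0 of the 8 (0% of all tested genes), with 0 under an unadjusted p of 0.05 (16.6% of all tested genes) and 0 called by DESeq2 (5.04% of genes with an adjusted p). The mean log2 change was −0.52 for ONECUT1 (SE 0.263, edgeR adjusted p = 0.358), −0.45 for SOX9 (SE 0.223, edgeR adjusted p = 0.347) and −0.45 for SPP1 (SE 0.22, edgeR adjusted p = 0.339). For HES1 it was −0.07, with a 95% interval from −0.24 to 0.10, and for CA2 0.10, with an interval from −0.25 to 0.45.

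With rimonabant the 4 genes whose libraries lay below DMSO were SOX9, ONECUT1, ONECUT2 and PROX1, and their log2 changes lay between −0.94 and −0.75. With the GC offset these were −0.84, −1.28, −0.58 and −0.55 in that order. Leaving out Rimonabant 2 gave −0.72, −0.87, −0.53 and −0.48. The summed CPM of 12 liver genes was 5773 to 9476 with rimonabant and 6433 to 7941 with DMSO. That of 10 gut genes was 887.9 to 900.4 against 839.2 to 966, that of 10 mesenchymal genes 2619 to 3134 against 2678 to 2852, and that of 12 endocrine genes 118 to 238.5 against 136.9 to 257.4. In each of these 4 lists the 2 groups overlapped. Of all 19 lists of other genes, 12 overlapped, 5 lay above DMSO with rimonabant and 2 below. Above and below were 8 and 3 with moxifloxacin, 7 and 1 with epirizole, 6 and 2 with rottlerin, and 5 and 3 with colchicine. They were 3 and 5 with Ly-294002 and 3 and 2 with vardenafil. By these plain CPM sums the Notch receptors and modulators lay above DMSO with every compound. Duct epithelium did so with all but Ly-294002, and cartilage with all but vardenafil. All were set against the same 2 DMSO libraries. For the Notch receptors and modulators, Moxifloxacin 2 had 1370 CPM and a TMM factor of 1.02. The DMSO libraries had 1353 and 1361 CPM and factors of 0.9855 and 0.9861. Under TMM scaling moxifloxacin therefore no longer lies above DMSO in this list. With rimonabant the cartilage genes summed to 1082 to 1185 CPM against 709.3 to 757.1. The duct epithelium genes summed to 3955 to 4465 CPM against 3788 to 3792. Such sums are weighted to the most abundant genes. Of 18 tested duct epithelium genes 8 had a log2 change above 0 and 10 below, with a median of −0.088. Of 11 tested cartilage genes 6 lay above 0 and 5 below, with a median of 0.007, and COL2A1 was the most abundant (mean 756.4 CPM over the 16 libraries). Also above were the sums of Notch receptors and modulators (1450 to 1657 against 1353 to 1361), Notch targets (40.49 to 45.56 against 37.73 to 38.12) and transport genes (928.6 to 1003 against 903.7 to 924.6). By log2 change 10 of 13 receptors and modulators, 3 of 6 targets and 7 of 13 transport genes lay above 0. These sums are plain CPM. The TMM factors were 0.9855 and 0.9861 with DMSO and 0.9992 and 1.047 with rimonabant. Under this scaling the gap of the transport genes closes (928.6 CPM in Rimonabant 1 against 924.6 in DMSO 2, both plain). The numbers of lists above and below DMSO therefore hold for plain CPM sums only. The summed Notch ligands (209.2 to 213.8 against 247 to 258.3) and carbonic anhydrases other than CA2 (73.39 to 77.39 against 93.54 to 93.8) lay below. Yet of the 5 ligands 4 had a log2 change above 0 and 1 below, with a median of 0.229. JAG1 was the most abundant of them (mean 189.1 CPM over the 16 libraries). Of 9 tested carbonic anhydrases 1 lay above 0 and 8 below, with a median of −0.328. The part of tissue make-up in these values was not tested further.

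The 8 genes were then compared with each other over the 16 libraries, as log2 levels, in 28 pairs. Pearson's r had an adjusted permutation p under 0.05 in 10 pairs, all of them positive, and Spearman's rho in 9. The share of all gene pairs that reach such an r was not measured, so the count is not shown to be particular to these genes. The permutations shuffled all 16 libraries without regard to group. The 6 pairs among SOX9, ONECUT1, ONECUT2 and PROX1 were all among them, with r from 0.729 to 0.971. These genes were grouped with their values already known, so this range describes the grouping and is no test of it. ONECUT2 and PROX1 were closest (r = 0.971, rho = 0.947, both with permutation p = 1e-05, the smallest that 100000 permutations can give, and adjusted p = 0.00014), and r was 0.941 without Rottlerin 2 and Rimonabant 2. SOX9 and ONECUT1 came next (r = 0.915, rho = 0.906, permutation p = 1e-05 for both, adjusted p = 0.00014), with r = 0.869 without Ly-294002 1 and Vardenafil 2. Libraries share depth and composition, so that each r describes these libraries.

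CA2, the carbonic anhydrase, joined the same 4 genes, with r = 0.79 to ONECUT2 (rho = 0.771, permutation p = 0.00025, adjusted 0.00117) and 0.784 to PROX1 (rho = 0.732, permutation p = 0.00023, adjusted 0.00117). Its relation to ONECUT1 had r = 0.69 (rho = 0.688, permutation p = 0.00328, adjusted 0.0102). That to SOX9 was the weakest (r = 0.597, permutation p = 0.0152, adjusted 0.0424) and missed the threshold by rank (rho = 0.579, permutation p = 0.0207, adjusted 0.0581). All 4 were lower without the 2 libraries farthest from the median of the other gene: r was 0.668 with ONECUT2 (without Rottlerin 2 and Rimonabant 2), 0.658 with PROX1 (without Colchicine 2 and Rimonabant 2), 0.527 with ONECUT1 (without Colchicine 2 and Vardenafil 2) and 0.402 with SOX9 (without Ly-294002 1 and Vardenafil 2), the last of which rests on those libraries. CFTR, the channel that works beside CA2 in duct secretion, did not follow it (r = −0.265, rho = −0.288, permutation p = 0.317, adjusted 0.493). Neither SPP1 nor HES1 had a relation with any of the other genes at an adjusted permutation p under 0.05.

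The relations were also measured within groups. As deviations from the mean of each group, which removes every difference between treatments, r among SOX9, ONECUT1, ONECUT2 and PROX1 was 0.686 to 0.98, and CA2 had r = 0.941 with ONECUT2 and 0.975 with PROX1. With 2 libraries in a group, these deviations carry 8 independent differences. With levels corrected for GC content, r among the 4 genes was 0.751 to 0.966. Without Rimonabant 2 the lowest of these r was 0.749. All of these r come from the same libraries in which the genes were grouped, and are not independent support for the grouping. In the colchicine pair, for example, ONECUT1 went from 122.6 to 61.2 CPM, ONECUT2 from 922.1 to 514.8 and PROX1 from 118.4 to 73 between the 2 libraries of the same treatment, while HES1 was 72.7 and 80.0 CPM.

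**Figure D3:**
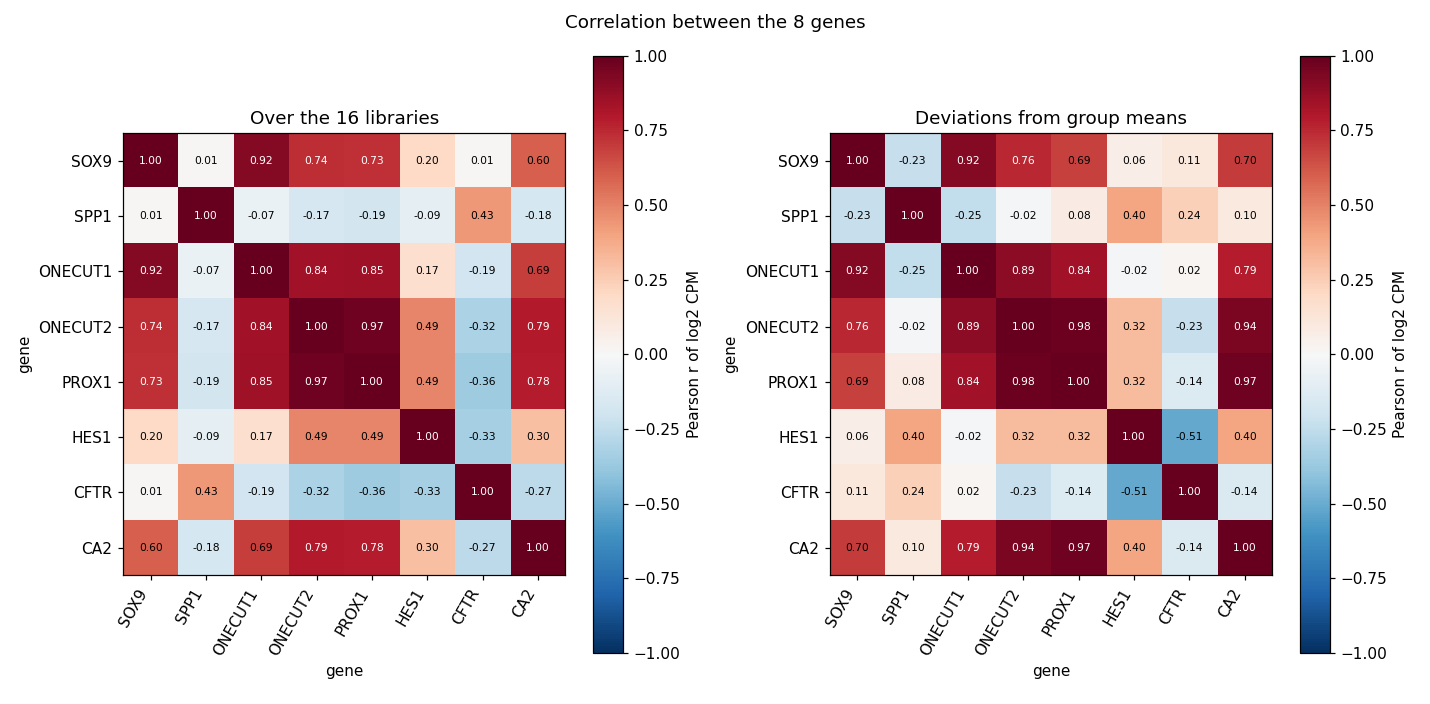
Pearson r between the log2 levels of the 8 genes (both axes list the genes, and the colour scale runs from −1 to 1), over the 16 libraries on the left and for deviations from group means on the right. SOX9, ONECUT1, ONECUT2, PROX1 and CA2 form a red block in both panels, and SPP1, HES1 and CFTR stay outside it.

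Each gene was also set against the mean log2 level of 8 lists (duct epithelium, pancreatic progenitor, liver, gut, mesenchyme, cartilage, neural and endocrine genes), 64 relations in all. The lists contain none of the 8 genes. A single relation passed adjustment by Pearson's r, that of SOX9 with the pancreatic progenitor list (r = 0.8, permutation p = 0.00015, adjusted 0.0096, rho = 0.768, permutation p = 0.00087, adjusted 0.0442), which was 0.61 without Ly-294002 1 and Vardenafil 2 and 0.844 within groups. ONECUT1 had r = 0.71 with the same list (permutation p = 0.00207, adjusted 0.0662, rho = 0.738, permutation p = 0.00138, adjusted 0.0442) and 0.512 without those 2 libraries. No gene had a relation with the liver, gut or mesenchyme mean at an adjusted permutation p under 0.05. The largest of these was CA2 with gut (r = 0.641, rho = 0.585, permutation p = 0.00716, adjusted 0.153, and r = 0.675 without Rottlerin 1 and Rottlerin 2).

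The 10578 tested genes with a mean of at least 10 CPM, other than the 8, were ranked by Pearson's r with each gene over the 16 libraries, as a description without a test. RASSF9 was most like SOX9 (r = 0.985), ahead of UPK1B (0.921) and WDR72 (0.897). For ONECUT1 the first was NR5A2 (0.927), a nuclear receptor of pancreas and liver, followed by IL1RAP (0.921) and GABRA2 (0.92). AKAP7 led for both ONECUT2 (0.966) and PROX1 (0.98), with the potassium channel KCNJ16 (0.962) and the tight junction gene CLDN1 (0.96) next for ONECUT2 and AK4 (0.963) and RAP2A (0.953) for PROX1. CLDN1 was also among the 3 nearest to CA2 (0.848), beside HEPACAM2 (0.869) and RPS6KA3 (0.847). SPP1 was closest to the thioredoxin reductase TXNRD1 (0.89), ATP10D (0.837) and STS (0.833). CFTR had FAR2 (0.91), ODC1 (0.872) and UGT3A2 (0.858), and HES1 had lower values, led by RAPGEF6 (0.847), FGD5-AS1 (0.83) and the splicing factor SRSF3 (0.807).

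Endocrine content varied widely between the 2 libraries of a group. It was expressed as a score, the mean log2 CPM of 11 endocrine genes such as the granule protein CHGA, and the score ran from 1.17 (Ly-294002 1) to 3.80 (Moxifloxacin 2). With group in the model, edgeR called the slope on this score for 0 of the 8 genes (3.07% of all tested genes), SPP1 alone had an unadjusted p under 0.05 (16.8% of all tested genes), and DESeq2 called 0 (5.4% of genes with an adjusted p). Per unit of score the log2 level changed by 0.13 for SOX9 (SE 0.092, edgeR adjusted p = 0.557) and 0.10 for ONECUT1 (SE 0.117, edgeR adjusted p = 0.747). The slope of ONECUT2 was −0.01, with a 95% interval from −0.29 to 0.28, that of PROX1 −0.01 (−0.25 to 0.23) and that of CA2 0.01 (−0.14 to 0.16). HES1, the repressor of endocrine differentiation, had −0.03 (−0.10 to 0.04), the narrowest interval of the 8.

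SPP1 had a slope of −0.18 (SE 0.079, unadjusted p = 0.0463 and adjusted p = 0.287 in edgeR). In all 8 groups the library with the higher endocrine score had the lower SPP1 level, which was so for 1.99% of all tested genes. None of the 8 was higher in that library in all 8 groups (2.41% of all tested genes). The gap was wide with rimonabant (26.7 and 12.7 CPM) and colchicine (37.4 and 23.0 CPM) and small with Ly-294002 (15.2 and 14.8 CPM). For the other 7 genes the direction differed between groups, from 3 groups lower for CFTR to 5 lower for SOX9, ONECUT1 and HES1.

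**Figure D4:**
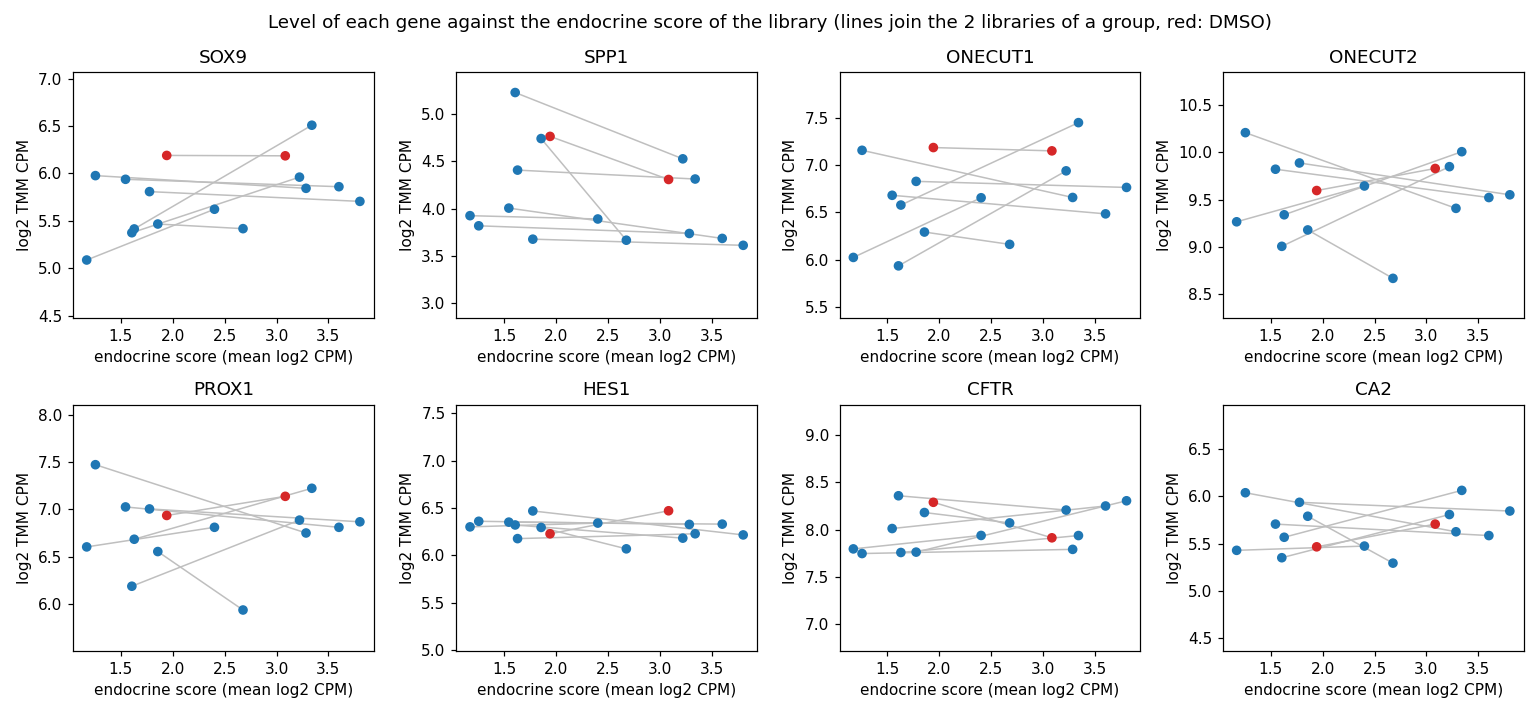
Log2 TMM-normalised CPM of each of the 8 genes (vertical axis, with the same span in every panel) against the endocrine score of the library (horizontal axis, mean log2 CPM of 11 genes), with a line joining the 2 libraries of each group and DMSO in red. Every SPP1 line slopes downward, whereas lines of SOX9, ONECUT1, ONECUT2 and PROX1 run both ways.

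Other duct and progenitor genes did have slopes on the score. Called genes of the duct epithelium list included the cystic kidney gene PKHD1 (0.79 log2 units per unit of score) and KRT7 (0.22) upward and the immune checkpoint gene VTCN1 downward (−0.27). Of 17 tested pancreatic progenitor genes NKX6-1 alone was called (1.42, edgeR adjusted p = 0.00186). Among Notch ligands DLL4 was called (0.54, edgeR adjusted p = 0.0345), and among transport genes the secretin receptor SCTR (0.56, edgeR adjusted p = 0.0215), through which ducts are stimulated to secrete. The calls of KRT7, DLL4 and SCTR were lost without any 1 library of the epirizole or moxifloxacin pairs, and those of KRT7 and VTCN1 without the group term. DLL4 was also lost with the GC offset and without any 1 DMSO or colchicine library, and DLL4 and SCTR without any 1 vardenafil library. PKHD1 and NKX6-1 stayed called in each of these settings.

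Between treatments, calls in these lists came from rimonabant (7.8% of all tested genes called) and colchicine (0.196%) alone. With rimonabant 3 of 18 duct epithelium genes rose, KRT7 (0.99), CLDN4 (0.69) and KRT19 (0.37, but −0.13 with the GC offset), and 0 of 17 pancreatic progenitor genes passed, with 3 at an unadjusted p under 0.05. With colchicine the keratin KRT18 rose (0.53, edgeR adjusted p = 0.0401) and the progenitor factor SOX11 fell (−0.62, edgeR adjusted p = 0.0401). Of 8 tested SOX family genes other than SOX9, SOX4 and SOX11, SOX12 rose (0.63) and SOX6 fell (−0.76) with rimonabant. COL2A1, a cartilage collagen that SOX9 is known to activate, rose with colchicine (0.83, edgeR adjusted p = 0.00993) and with rimonabant (0.76, edgeR adjusted p = 0.012), while the values of SOX9 were below DMSO with both, at −0.49 and −0.75 without passing the threshold. The rimonabant calls of KRT7, CLDN4, KRT19, SOX12, SOX6 and COL2A1 are all lost with the GC offset or without Rimonabant 2, DMSO 1 or DMSO 2. The colchicine calls of KRT18, SOX11 and COL2A1 are likewise lost with the GC offset (edgeR adjusted p = 0.091, 0.0645 and 0.0839) and without any 1 library of the pair or of DMSO, and those of KRT18 and SOX11 with the replicate block (0.079 for both).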

How the data were processed

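Total RNA of 16 whole cultures, 2 for each of DMSO and 7 compounds, was depleted of ribosomal RNA and sequenced from both ends, per the labels' protocols. The authors used Trimmomatic 0.38, STAR 2.7.1a and featureCounts 1.6.0 or HTSeq, per the labels' protocols, and the GRCh38 genome, per the submitters' processing notes. The annotation release, strand setting and handling of duplicate reads are not given in the sources used here. The deposited values were raw read counts per gene, not normalised by the authors.

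Counts were analysed with edgeR 4.0.16 in R 4.3.3. The filter filterByExpr, given the 8 groups, left 24515 genes with 99.92% of reads, and TMM factors scaled the libraries. All 16 libraries entered 1 robust quasi-likelihood fit with 8 residual degrees of freedom, in which 10 two-sided tests were made: each compound against DMSO, any of the 7, their mean, and the slope on an endocrine score with group as a covariate. Adjustment was by the Benjamini-Hochberg method across the 24515 genes, and an adjusted p under 0.05 was called. Log2 levels used a prior count of 0.5. Correlations used 100000 permutations, two-sided, adjusted over 28 or 64 relations. Of the 12 endocrine genes, 11 were tested and entered the score. The GC offset was a lowess trend with a span of 0.3 for each library, over the 23352 tested genes (95.26%) whose transcripts had a GC value in GENCODE 29. Loci are from GENCODE 29 on GRCh38, and 5 of the 8 genes had a promoter entry in the RefSeq table.

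The 8 genes, the lists, the tests and the alternatives were chosen with earlier results of these data known. Named besides the 8 were the 3 genes most like each (mean of at least 10 CPM), up to 4 called genes of each list and its 3 most abundant genes. Further called genes of the lists were named after their values were seen. So were marker or low genes such as PDX1, PTF1A, CDX2, HES5, AQP5, INS, GCG and SST. A few called list genes are not reported here. Alternatives were DESeq2 1.42.0, its size factors, no filter, a replicate block, the GC offset and leaving out each library. The relations with list means, the correlations from GC-corrected values and those without Rimonabant 2 were added after the data were seen. In simulated counts a log2 change of 2 was recovered for 100% of changed genes and of 1 for 62%, in colchicine against DMSO over 24515 genes. The simulation gave every gene the same biological coefficient of variation, 0.165. Estimates were 0.211 to 0.251 for SPP1, SOX9, PROX1, ONECUT1 and ONECUT2, and 0.0886 to 0.149 for HES1, CFTR and CA2. The recovery therefore does not carry over to the 8 genes, and is too high for the first 5.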

Additional observations from a re-analysis of the deposited data

How the results depend on the processing

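Of 1024 values of the 8 genes under alternatives, 915 kept their direction and their side of the threshold, 28 passed it newly and 81 changed sign without a call. Without the filter on low counts the number of the 8 genes called was 3 with colchicine, 1 with epirizole, 2 with Ly-294002, 1 with moxifloxacin, 2 with rottlerin, 4 with rimonabant, 6 in the joint test, 3 for the mean of compounds and 2 for the endocrine slope. That setting admitted 44689 genes. Of all these, edgeR called 33 with epirizole, 169 with Ly-294002, 742 with moxifloxacin, 1076 with rottlerin, 113 with vardenafil and 2686 with rimonabant. The numbers for the other tests are given below. The prior degrees of freedom had an infinite median there, against 7.04 with the filter, so that each gene's own spread gave way to the trend. DESeq2's test called 1 with rimonabant and 1 in the joint test. On leaving out 1 library the calls changed only for SPP1 without Rimonabant 1, with rimonabant and in the joint test. Rimonabant 2 alone then stood for that compound. All genes called with rimonabant numbered 1913, but 0 with the GC offset, 0 without DMSO 1, DMSO 2 or Rimonabant 2, 2868 with DESeq2, 1090 with the replicate block and 3913 without Rimonabant 1. With the GC offset KRT19 (−0.129) and NOTCH3 (−0.006) reversed with rimonabant. All genes called with colchicine numbered 48, but 1 with the GC offset, 5 with the replicate block, 1 to 2 without any 1 library, 150 with DESeq2's size factors and 904 with DESeq2. In the joint test they numbered 1, but 1216 with DESeq2 and 361 without Rimonabant 1, for the mean of compounds 0, but 685 with DESeq2 and 733 without Rimonabant 1, and for the endocrine slope 753, with 284 to 1372 on leaving out 1 library. Without the filter on low counts the numbers were 1568, 3022, 1117 and 1867 in that order. The 8 pairs of genes with r of at least 0.7 were the same pairs with a prior count of 2, with GC-corrected values and without Rimonabant 2. Within groups 7 of them were shared, with ONECUT1 and CA2 (0.789) in place of SOX9 and PROX1 (0.686), and 6 remained without the 2 libraries farthest from the median, both losses being pairs with CA2.

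Replicate numbers were shared by all groups, but over 28 pairs of groups the correlation of deviations of same-numbered libraries had a median of −0.034 (−0.242 to 0.2, 4 over 0.1), so that the numbers did not pair the libraries. With the replicate block the number of the 8 genes called stayed 0 in each of the 10 tests. With 2 libraries in a group, the median width of a 95% interval was 0.462 log2 units for HES1 and 1.64 for ONECUT1, which limits the differences that could be seen.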
